A study of Mus musculus with 2 samples.

Results

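Neutrophils of hindlimb muscle were chosen from droplet-based single-cell RNA-Seq of aged mice by the transcripts of each barcode. Of 14984 kept barcodes, 135 were chosen, 27 of 7467 in the ATRA+agonist library and 108 of 7517 in the DMSO vehicle library. Kept barcodes had 300 to 5000 detected genes, under 20% of UMIs (unique molecular identifiers, each marking a captured transcript) from mitochondrial genes and under 0.25% from hemoglobin beta genes. A neutrophil had at least 20 UMIs of S100a8 and S100a9 together, at least 2 UMIs of Csf3r, Retnlg, Cxcr2 and Il1r2 together (called receptor UMIs below), and at most 1 UMI of the endothelial, mesenchymal, B cell and macrophage genes Pecam1, Pdgfra, Cd79a and C1qa together. These genes chose the cells, so their own levels are a description only.

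The mice were female C57Bl/6J animals aged 24 months. All of them received 3 intramuscular injections within a week, into the tibialis anterior, gastrocnemius and quadriceps. The ATRA+agonist mice were given all-trans retinoic acid (ATRA, the active form of vitamin A) with CD3254, an agonist of the receptor RXR-alpha, and BMS961, an agonist of RAR-gamma. The control mice were given the DMSO vehicle. According to the study's methods, quadriceps and gastrocnemius were digested, and cells were sorted with propidium iodide without selection for CD45. Each library was a pool of cells from 2 mice. No step that clears blood from the muscle was described, so that neutrophils of the vessels and of the tissue cannot be told apart. With 1 library per group there was no replicate. Every difference is one between 2 libraries, treatment and library cannot be told apart, and no test across samples was possible. The intervals given are 95% intervals that cover counting error only.

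Neutrophils are short-lived phagocytes that are made in the bone marrow and reach injured or inflamed tissue through the blood. They fill their granules in sequence while they mature. Proteases of the primary granules, such as elastase, are transcribed first, in promyelocytes. Proteins of the secondary granules, such as lactoferrin and the cathelicidin Camp, follow in myelocytes and metamyelocytes, and gelatinase follows later. Cells that leave the marrow have ended most granule transcription and carry receptors for chemoattractants and cytokines. Retinoic acid is known as an inducer of granulocyte maturation, through RAR-alpha and the transcription factor C/EBP-epsilon.

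Promoter sequences of the secondary granule genes are shown because the number of cells that transcribe these genes differed between the neutrophils of the 2 libraries. The sequences are the 250 bases before the start site in RefSeq (GRCm38.p6), written on the strand of the gene. Positions of matches count from that RefSeq start. The gene positions given below are those of GENCODE M21 and differ from it. By them the Lcn2 window lies inside the gene, and the windows of Camp, Ngp and Ltf overlap the gene start. Capitals mark matches to TTNNGCAA or its reverse complement, the core of C/EBP sites, and overlapping matches were allowed. Camp lies at chr9:109849457-109849706 (minus strand), Ngp at chr9:110419558-110419807 (plus), Ltf at chr9:111019042-111019291 (plus) and Lcn2 at chr2:32387740-32387989 (minus).
Camp: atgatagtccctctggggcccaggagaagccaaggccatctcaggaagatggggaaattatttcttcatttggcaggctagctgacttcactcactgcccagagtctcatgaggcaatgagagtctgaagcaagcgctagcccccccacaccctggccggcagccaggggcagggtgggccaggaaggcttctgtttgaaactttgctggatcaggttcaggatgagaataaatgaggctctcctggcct
Ngp: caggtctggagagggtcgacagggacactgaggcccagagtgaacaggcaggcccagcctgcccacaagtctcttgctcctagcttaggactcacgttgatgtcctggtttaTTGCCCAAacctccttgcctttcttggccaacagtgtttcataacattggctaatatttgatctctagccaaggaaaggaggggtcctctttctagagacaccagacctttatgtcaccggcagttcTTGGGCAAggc
Ltf: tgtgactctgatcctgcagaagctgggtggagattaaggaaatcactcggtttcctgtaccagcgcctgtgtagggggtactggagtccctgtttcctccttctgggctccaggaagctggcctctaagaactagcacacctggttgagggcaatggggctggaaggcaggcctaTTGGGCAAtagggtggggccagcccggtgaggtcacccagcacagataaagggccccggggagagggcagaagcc
Lcn2: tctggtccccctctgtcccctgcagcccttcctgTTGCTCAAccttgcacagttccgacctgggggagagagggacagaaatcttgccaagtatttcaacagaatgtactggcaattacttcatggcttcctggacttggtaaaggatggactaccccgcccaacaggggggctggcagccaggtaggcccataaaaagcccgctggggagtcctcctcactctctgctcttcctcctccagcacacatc
Ngp held 2 matches, which began 138 and 11 bases before the start site (positions -138 and -11). Ltf held 1 match at -75, Lcn2 held 1 at -216 and Camp held 0. In windows from 250 bases before to 50 after the start, 3547 of 32851 RefSeq promoters (10.8%) held such a match, and so did 3 of the 7 genes of the secondary granule list with an entry. The 7 include the receptor gene Ltb4r1, which held 0. A looser form, TTNNGNAA, was found in 13365 promoters (40.7%) and in 4 of the 7. A match is a description of the letters and not a site shown to be bound.

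The neutrophil share of kept barcodes was 0.362% (exact Clopper-Pearson interval 0.238% to 0.526%) in the ATRA+agonist library and 1.44% (1.18% to 1.73%) in the DMSO vehicle library. The share was therefore 3.97-fold lower with ATRA+agonist (2.61 to 6.05), and the intervals of the 2 libraries did not overlap. The size of this ratio depended on the barcodes counted. As a ratio of ATRA+agonist over DMSO vehicle it was 0.252 over kept barcodes, 0.416 over all deposited barcodes and 0.147 over kept barcodes with a UMI of Ptprc, the gene of the leukocyte antigen CD45. For the neutrophils with fewer than 10 UMIs of Camp, Ngp and Ltf it was 0.429. Among kept barcodes with a Ptprc UMI, neutrophils were 27 of 1674 (1.07% to 2.34%) and 107 of 977 (9.06% to 13.1%). Other myeloid cells, chosen in the same barcodes by their own transcripts, did not show this direction. Monocytes were 175 ATRA+agonist cells (2.34%, 2.01% to 2.71%) and 136 DMSO vehicle cells (1.81%, 1.52% to 2.14%). Macrophages were 394 (5.28%) and 315 (4.19%).

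**Figure D1:**
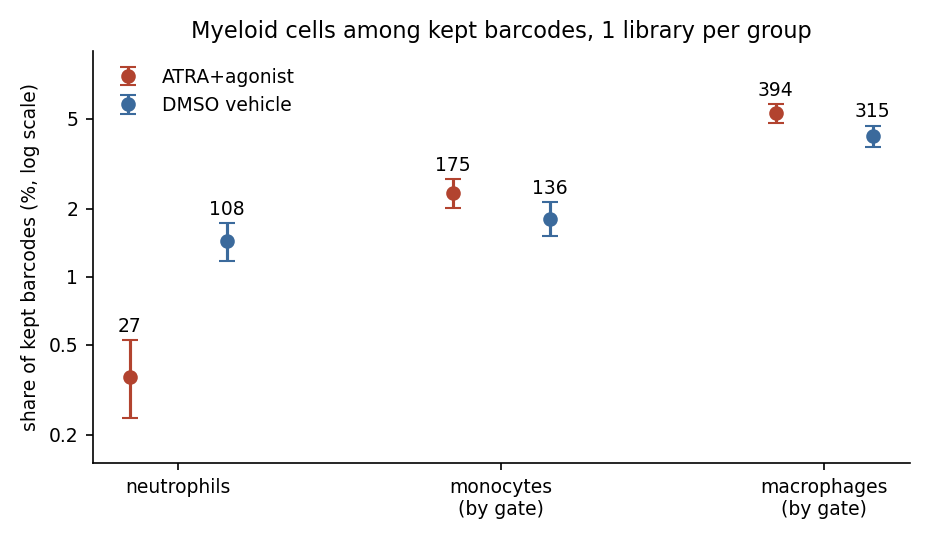
The share of kept barcodes (%, log scale) is plotted for neutrophils, monocytes and macrophages, each chosen by its transcripts, with the number of cells above each point and bars for the exact 95% counting interval. Neutrophils lie at 0.362% with ATRA+agonist and 1.44% with DMSO vehicle, while both other classes are slightly higher with ATRA+agonist.

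Barcodes near the limits of the choice were mostly those with few receptor UMIs in the DMSO vehicle library. There 7 neutrophils had 2 receptor UMIs, the fewest allowed, and 24 of 108 (22.2%) had fewer than 6, while all 27 ATRA+agonist neutrophils had 6 or more. No barcode of either library had 10 to 19 UMIs of S100a8 and S100a9 together with the other criteria met, and 2 ATRA+agonist and 6 DMSO vehicle neutrophils had 20 to 39. Barcodes with 0 or 1 receptor UMI that met the other criteria were 0 in the ATRA+agonist library, and 3 and 4 in the DMSO vehicle library. The limit on excluded genes removed 2 barcodes with ATRA+agonist and 7 with DMSO vehicle. Of barcodes with at least 100 but under 300 genes, 79 and 19 met the other filters, and 0 of them passed the gate. Before any filter 28 and 121 barcodes passed, of which the hemoglobin limit removed 1 and 11.

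The libraries differed in RNA outside the neutrophils as well. The deposited matrices held 65197625 UMIs over 10444 barcodes (ATRA+agonist) and 109343486 over 17394 (DMSO vehicle), and their neutrophils held 133360 and 809558. Hemoglobin beta made up a median of 0.0271% of UMIs in ATRA+agonist neutrophils and 0.0738% in DMSO vehicle neutrophils, beside 0.0185% and 0.0671% in all other kept barcodes. S100a8 was detected in 0.305% of ATRA+agonist and 1.81% of DMSO vehicle endothelial cells, which should lack it (median 3900 and 4083 UMIs), and in every neutrophil. The part of free RNA and of blood in the results below was not tested. The matrices had 43 barcode names in common, 2 of them names of neutrophils, and 0 were neutrophils in both.

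Genes outside the gate were read as a description of the chosen cells. The ranking by fold was made in these same cells. The limit on Pecam1, Pdgfra, Cd79a and C1qa can by itself keep other markers of those cell classes low. Neither is a separate test of the label. Of 22 further neutrophil markers all had at least 10 UMIs, and the genes with the largest fold over other kept barcodes were Olfm4, Cstdc4, Ms4a3, Elane, Stfa2l1, Fcnb, Camp, Il1f9, Ngp, Ltf, Ly6g, Itgb2l, Mrgpra2b, Lcn2, Mpo, Wfdc21, Mmp8, Mmp9, Abca13 and Cd177. Camp stood 10.23 log2 units above the other cells, and Mmp9, the gelatinase of tertiary granules, 8.85. Of 16 monocyte and macrophage markers, 12 had at least 10 UMIs over both libraries. Ccr2 had 0 and 26 UMIs, and Fn1 had 0 and 34. In neutrophils with fewer than 10 UMIs of Camp, Ngp and Ltf, Ctss had 33 and 69 UMIs and F13a1 had 1 and 33. In the same cells Csf1r had 15 and 16 and Adgre1 had 14 and 14. C1qb, C1qc and Cd209a, which define macrophages and dendritic cells, had 0 UMIs in both libraries. Mast cell and basophil markers had 0 and 2 UMIs, lymphocyte markers 14 and 131, endothelial markers 15 and 173, mesenchymal markers 36 and 282, and muscle stem cell and fiber markers 2 and 27. In the DMSO vehicle library 1 cell held 115 of the endothelial UMIs, and another held 110 of the mesenchymal ones. Monocyte and macrophage markers, several of which neutrophils also transcribe, ranged from 0% to 1.65% of a cell's UMIs with ATRA+agonist and from 0% to 3.31% with DMSO vehicle. By their receptor and granule UMIs, 7 DMSO vehicle neutrophils fitted the label poorly. The cells rich in endothelial or mesenchymal UMIs were not among them. These 7 had fewer than 6 receptor UMIs and fewer than 10 UMIs of Camp, Ngp and Ltf. S100a8 and S100a9 made up a median of 0.716% of their UMIs. Of the 7, 4 carried 20 or more UMIs of monocyte and macrophage markers, beside 58 of all 108 DMSO vehicle neutrophils. That count therefore did not set them apart. Some results are also given without these 7 cells.

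The genes of the gate are given first, as a description of the chosen cells. S100a8 and S100a9 encode the subunits of calprotectin, an abundant cytosolic protein of neutrophils. Together they took a median of 7.07% of a cell's UMIs with ATRA+agonist (0.747% to 31.8%) and 19.7% with DMSO vehicle (0.138% to 37.2%). S100a8 (chromosome 3, 90668978 to 90670035, GRCm38) was at 53700 CPM (UMIs per 1000000 UMIs, summed over the neutrophils of a library) and 91700 CPM, a log2 ratio of ATRA+agonist over DMSO vehicle of -0.77 (-0.81 to -0.74). S100a9 (chromosome 3, 90692632 to 90695721) was at -0.89. Csf3r, the receptor of the growth factor G-CSF, was at 1350 CPM against 502 (1.43). Il1r2, the decoy receptor of interleukin 1, was at 1.40, Cxcr2, the chemokine receptor that draws neutrophils into tissue, at 0.87, and Retnlg, a secreted resistin-like protein, at -0.54.

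Cells that transcribe secondary granule genes were fewer with ATRA+agonist. At least 10 UMIs of Camp, Ngp (neutrophilic granule protein) and Ltf (lactoferrin) were found in 4 of 27 ATRA+agonist neutrophils (interval 4.19% to 33.7%) and in 54 of 108 DMSO vehicle neutrophils (40.2% to 59.8%), called granule-rich below. The cells had a median of 3595 UMIs with ATRA+agonist (790 to 23624) and 5448.5 with DMSO vehicle (1537 to 33664). After thinning every cell to 500 UMIs, at least 1 UMI of the 3 genes was left in 5 ATRA+agonist cells (18.5%, 6.30% to 38.1%) and 52 DMSO vehicle cells (48.1%, 38.4% to 58.0%), beside 22.2% and 58.3% unthinned. The order of the libraries was the same at equal depth.

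**Figure D2:**
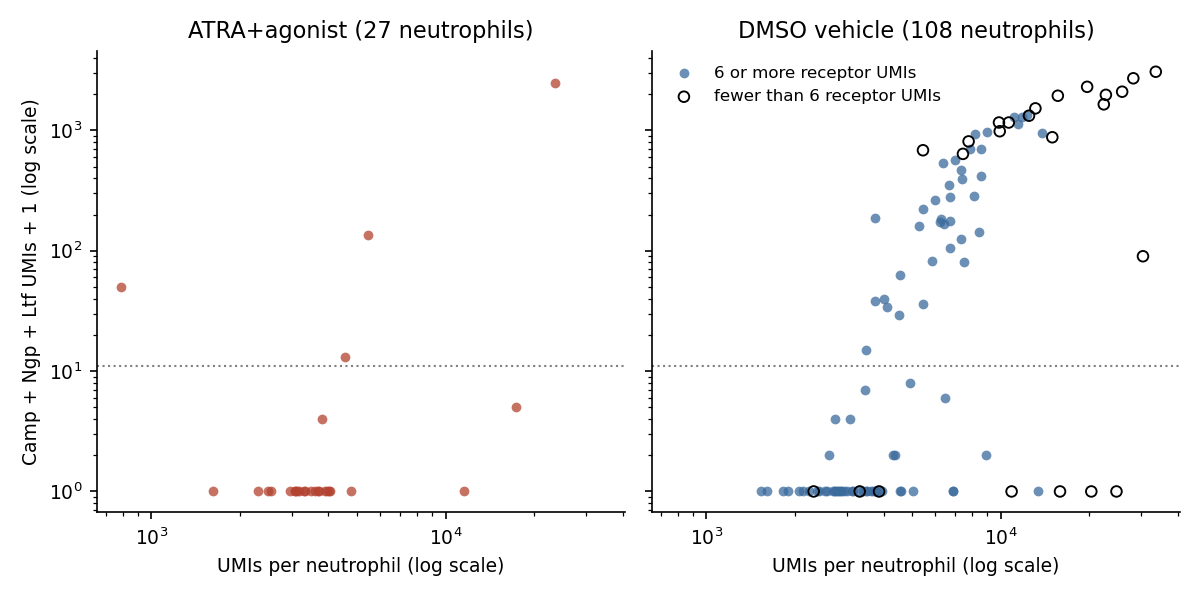
Each point is a neutrophil, with its UMIs on the x axis and its UMIs of Camp, Ngp and Ltf plus 1 on the y axis (both log scale), and open circles have fewer than 6 receptor UMIs. Above the dotted line, at 10 UMIs, lie 4 of 27 cells with ATRA+agonist and 54 of 108 with DMSO vehicle, and the open circles are all in the DMSO vehicle library.

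A single cell decided the level of these genes in the ATRA+agonist library. Camp (chromosome 9, 109847379 to 109849617) was at 7150 CPM with ATRA+agonist and 24900 CPM with DMSO vehicle, a log2 ratio of -1.80 (-1.90 to -1.71). The deepest ATRA+agonist neutrophil, with 23624 UMIs (17.7% of all neutrophil UMIs of that library), held 92.7% of its Camp UMIs. It also held 92.7% of its Ngp UMIs (chromosome 9, 110419747 to 110423012), whose log2 ratio was -0.78, and 87.3% of its Ltf UMIs (chromosome 9, 111019271 to 111042767), at -1.90. Camp was detected in 3 and 52 cells, Ngp in 6 and 60, and Ltf in 3 and 50. Without the deepest neutrophil of each library the median of the 8 secondary granule genes was -3.55 in place of -0.94.

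Lcn2 (lipocalin 2, an iron scavenger; chromosome 2, 32384633 to 32388252) was at 3250 and 8440 CPM, a log2 ratio of -1.38. The other genes of the secondary granule list lay between -0.98 for Chil3, a chitinase-like protein, and -0.39 for Hp, haptoglobin. Among them was Ltb4r1, which encodes a receptor of leukotriene B4 and not a granule protein. It is counted in every value given for this list. Over all 1407 genes with at least 100 UMIs in both sums, 98 (6.97%) were at least 2-fold higher with DMSO vehicle and 185 (13.1%) at least 2-fold higher with ATRA+agonist, around a median of 0.23. With a minimum of 4 receptor UMIs per neutrophil in place of 2, these counts were 50 and 100, and with 6 they were 51 and 58. Of the 8 secondary granule genes 3 were at least 2-fold higher with DMSO vehicle (Camp, Ltf and Lcn2) and 0 with ATRA+agonist. The split of these calls depended on scaling. Of all genes past 2-fold, 65.4% were higher with ATRA+agonist, but 39.7% were after calprotectin, mitochondrial, ribosomal protein and hemoglobin genes had been left out of the totals, 36.3% under median-of-ratios scaling (which lowers each log2 ratio by 0.23) and 43.1% with each cell weighted equally.

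Transcripts of the primary granules were found in DMSO vehicle neutrophils and hardly at all in the other library. At least 10 UMIs of Mpo, Elane, Prtn3, Ctsg, Ms4a3 and Prss57 together were in 7 of 108 DMSO vehicle cells (6.48%, 2.65% to 12.9%) and in 0 of 27 ATRA+agonist cells, a count that an exact interval limits to 12.8%. At this number of cells the shares are not distinguishable. All 7 had at least 5 UMIs of proliferation genes, from 3 to 5 receptor UMIs, and a median of 25876 UMIs. A cell with 1231 primary granule UMIs had 0 UMIs of Camp, Ngp and Ltf, and one with 1921 had 89. The other 5 had 10 to 269 primary granule UMIs and 1645 to 3071 of Camp, Ngp and Ltf. The cell with 1231 is one of the 7 cells that fitted the label poorly, with 3 receptor UMIs. It had 88 UMIs of monocyte and macrophage markers, beside 102 to 342 in the other cells with at least 10 primary granule UMIs.

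The 4 largest falls over the sums came from few DMSO vehicle cells. Elane (neutrophil elastase) had 0 and 1488 UMIs, Prtn3 (proteinase 3) 0 and 871, Mpo (myeloperoxidase) 0 and 648, and Ctsg (cathepsin G) 0 and 284. Against a floor of 3 UMIs over all ATRA+agonist neutrophils (22.5 CPM) they were at least 81.7-fold, 47.8-fold, 35.6-fold and 15.6-fold lower with ATRA+agonist. Elane UMIs were in 7 DMSO vehicle cells, 1 of which held 55.1% of them, and the cell that fitted the label poorly held 519. Without the 7 cells of that kind the 4 bounds were 59.2-fold, 32.2-fold, 29.3-fold and 9.04-fold. Ms4a3, a membrane protein of granulocyte progenitors, had 2 and 204 UMIs, a log2 ratio of -3.75 (-7.13 to -2.20), and Mgst2, a glutathione transferase, 2 and 131 (-3.12, -6.49 to -1.55). Erg, a transcription factor of progenitors and endothelium, had 3 and 118 UMIs (-2.48, -4.99 to -1.11). Ms4a3 was detected in 11 DMSO vehicle cells. Mgst2 and Erg were spread more widely, in 37 DMSO vehicle cells each, with at most 9.92% and 11.9% of their UMIs there in 1 cell.

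The remaining large falls were spread over more cells. Ifitm6 was at 165 CPM with ATRA+agonist and 1330 CPM with DMSO vehicle (-2.98, -3.69 to -2.41), in 9 and 73 cells. Dach1, a transcriptional co-regulator, was at -2.51, in 4 and 63 cells, and Anxa3, an annexin, at -2.32, in 5 and 52. Ly6g, the antigen by which mouse neutrophils are usually sorted (chromosome 15, 75155240 to 75159126), was at 90.0 and 422 CPM (-2.17, -3.20 to -1.41). It was detected in 4 of 27 and in 65 of 108 cells.

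Within the DMSO vehicle library, granule-rich and granule-poor neutrophils also differed in many of these genes. Compared with the other 54 cells, the 54 granule-rich cells were higher in Ly6g (log2 2.78), Cd177 (2.92), Wfdc21 (2.83), Dach1 (2.89), Ifitm6 (2.21), S100a8 (1.80) and S100a9 (1.88). They were lower in Il1b (-3.77), Ccl6 (-3.80), Nlrp3 (-4.36), Ptgs2 (-4.50), Csf3r (-2.62) and Il1r2 (-2.52). Retnlg (0.06) and Mmp9 (0.51) were about level. This comparison lies within 1 library, and the cells were split on Camp, Ngp and Ltf.

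The inflammatory genes lay on the ATRA+agonist side when all neutrophils were summed. Of the 9 cytokine and chemokine genes tested, 5 were at least 2-fold higher with ATRA+agonist and 1 with DMSO vehicle, beside 13.1% and 6.97% of all genes, with a median log2 ratio of 1.03. With each cell weighted equally the median was 0.16, and Il1b was at 1.07 and Cxcl2 at 0.14. Median-of-ratios scaling took Cxcl2 below 2-fold. Il1b, the cytokine interleukin 1 beta (chromosome 2, 129364570 to 129371139), was at 3540 CPM (3230 to 3870) with ATRA+agonist and at 1070 CPM (1000 to 1150) with DMSO vehicle. Its log2 ratio was 1.72 (1.56 to 1.88), and it was detected in 24 of 27 and 61 of 108 cells. Thinned to 500 UMIs per cell, it was left in 85.2% (66.3% to 95.8%) and 38.9% (29.7% to 48.7%) of cells. The other 4 were Nlrp3, the inflammasome sensor (2.23), Ptgs2, the prostaglandin synthase COX-2 (2.21), Ccl6, a chemokine of mouse myeloid cells (1.77), and Cxcl2, a ligand of Cxcr2 (1.03). Ccl4, a chemokine that draws monocytes and lymphocytes, was at -1.79, and 56.8% of its DMSO vehicle UMIs came from 1 cell.

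Il1b and the granule genes were rarely in the same cell. Il1b was detected in all 23 granule-poor ATRA+agonist neutrophils, at 4670 CPM, and in 47 of 54 granule-poor DMSO vehicle neutrophils, at 2940 CPM. Among granule-rich cells it was found in 1 of 4 and 14 of 54, at 291 and 215 CPM. The difference between the libraries in granule-poor cells was therefore smaller than over all neutrophils.

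**Figure D3:**
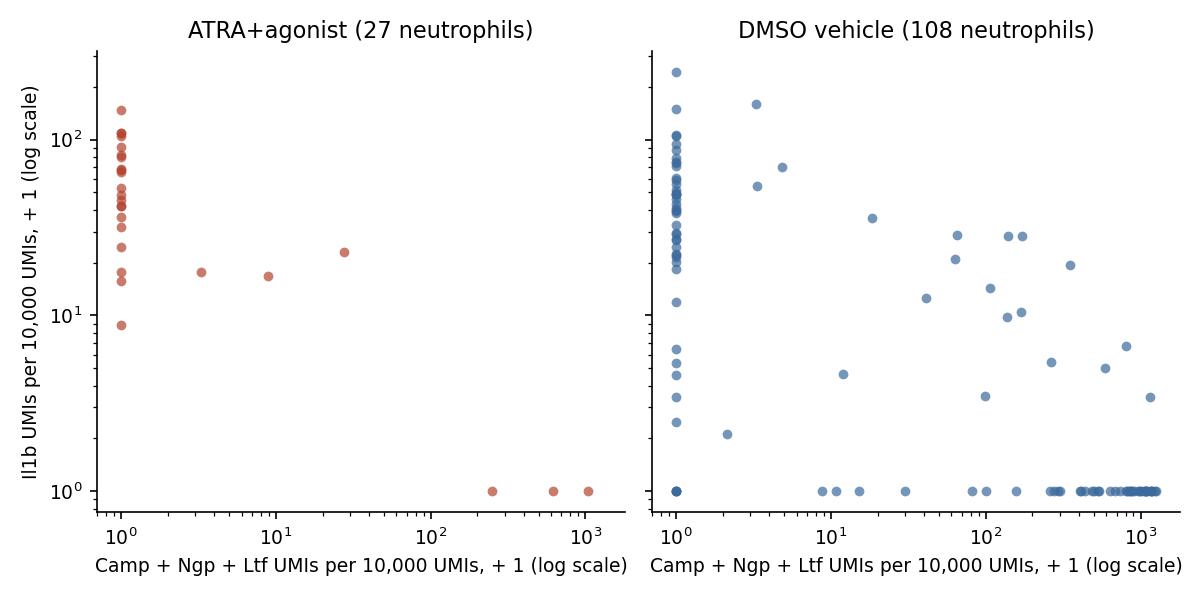
Each point is a neutrophil, with UMIs of Camp, Ngp and Ltf (x axis) and of Il1b (y axis) per 10,000 UMIs, both plus 1 and on a log scale. In both libraries high Il1b lies at the left edge, among cells without granule transcripts, and most cells at the right have no Il1b UMI (1 of 4 and 14 of 54 granule-rich cells have one).

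Most receptor and adhesion genes lay on the same side. Of 12 chemoattractant receptor and adhesion genes 6 were at least 2-fold higher with ATRA+agonist and 1 with DMSO vehicle (median 0.85), beside 13.1% and 6.97% of all genes. The 6 were Cd44, the hyaluronan receptor (1.52), Itgal, the alpha chain of LFA-1 (1.31), Ptafr, the receptor of platelet-activating factor (1.28), Ccr1 (1.16), Cxcr4, which retains neutrophils in the marrow (1.14), and C5ar1, the receptor of complement C5a (1.11). Itgb2l, an integrin beta chain of neutrophils, was at -1.04. The chemoattractant receptor Ltb4r1 is not among the 12, since it was counted with the secondary granule genes. Fpr1 and Fpr2, receptors of formyl peptides from bacteria, were at 0.53 (-0.15 to 1.13) and -0.60 (-1.43 to 0.07), within their counting error. Median-of-ratios scaling leaves Cd44, Itgal and Ptafr as the ones past 2-fold.

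Other neutrophil markers had members past 2-fold on either side, and the tertiary granule list had 2 on the DMSO vehicle side. Of 21 other neutrophil markers tested, 3 were at least 2-fold higher with ATRA+agonist (Stfa2l1, Clec4d and Slpi) and 4 with DMSO vehicle (Ly6g, Cd177, Wfdc21 and Lrg1), with a median of 0.39. Clec4d, a lectin receptor of fungal glycans, was at 1720 CPM with ATRA+agonist and 610 CPM with DMSO vehicle, and Slpi, an inhibitor of elastase, at a log2 ratio of 1.21. In the tertiary granule list 5 genes were tested, with a median of -0.09. Mmp8, a collagenase that is also a protein of secondary granules, was at -1.21. Padi4, an enzyme that citrullinates histones and is not a granule protein, was at -1.19. Mmp9, the gelatinase, was at -0.09 (-0.40 to 0.20). Of the NADPH oxidase, which makes the respiratory burst, the membrane subunits Cybb and Cyba were at -0.58 and -0.19, and the cytosolic subunits Ncf1, Ncf4 and Rac2 at -0.31, -0.34 and -0.17. Type I interferon-stimulated genes had the highest median of the lists with at least 5 genes tested. Of 5 tested 3 were at least 2-fold higher with ATRA+agonist, Ifi27l2a (2.54), Isg15 (1.53) and Ifitm1 (1.14), and 0 with DMSO vehicle, and the median was 1.14 (0.46 with each cell weighted equally). Immediate early genes had a median of 0.84 with 1 of 10 past 2-fold, Btg2 (1.22). Survival and death genes had a median of 0.72 with 1 of 5 past 2-fold, Bcl2a1b (1.61). In both lists the medians lay above that of all genes (0.23), while few members were past 2-fold, beside 13.1% of all genes.

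The largest rises by the naming rule were Maml3, Dusp16, Cass4, Ifi27l2a, Nlrp3, Ptgs2, Lypd6b, Tnfaip2, Fem1c and Basp1. Maml3, a co-activator of Notch, was at 465 and 50.6 CPM (3.19), in 11 and 17 cells. All other kept barcodes held it at 192 and 229 CPM, and Dusp16 at 101 and 108 CPM. Both genes therefore passed the naming rule through the ATRA+agonist library alone, where they were high. Among the falls, Elane, Prtn3, Mpo, Ctsg, Dach1, Erg and Anxa3 passed it through the DMSO vehicle library alone. Dusp16, a phosphatase of JNK, was at 727 and 104 CPM (2.81), and 40.2% of its ATRA+agonist UMIs came from 1 cell. Cass4, an adhesion scaffold, was at 397 and 64.2 CPM (2.63), in 20 and 36 cells. The other values ranged from 2.54 for Ifi27l2a to 2.05 for Basp1.

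To compare cells of a like stage, the sums were repeated over neutrophils with fewer than 10 UMIs of Camp, Ngp and Ltf, at least 6 receptor UMIs and under 10000 UMIs, a choice made after the data had been seen. This left 21 ATRA+agonist cells (median 3316 UMIs) and 46 DMSO vehicle cells (3094 UMIs), and left out the 7 cells that fitted the label poorly. The DMSO vehicle cells with 115 endothelial and 110 mesenchymal marker UMIs were kept. Most of the differences became smaller. Of 403 genes with at least 100 UMIs, 7 (1.74%) were at least 2-fold higher with ATRA+agonist and 10 (2.48%) at least 2-fold higher with DMSO vehicle, around a median of 0.12. Lists were compared over the genes tested in both sets. The median of 6 cytokine and chemokine genes was 0.57 in place of 1.75, that of 8 receptor and adhesion genes 0.27 in place of 1.13, and that of 4 type I interferon-stimulated genes 0.05 in place of 1.34. For 3 NADPH oxidase subunits the median did not become smaller, at 0.51 in place of -0.17. Camp, Ngp and Ltf chose these cells, and of the other secondary granule genes Hp and Lcn2 alone had enough UMIs, so that list is not compared.

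**Figure D4:**
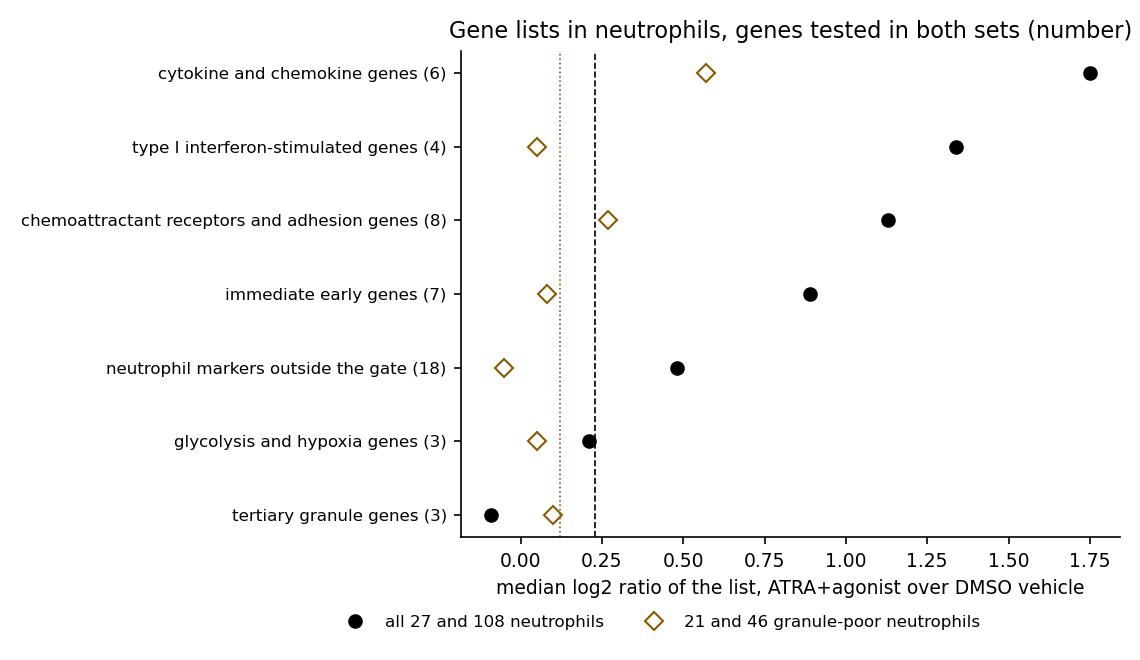
The median log2 ratio of ATRA+agonist over DMSO vehicle (x axis) is plotted for 7 gene lists over the genes tested in both sets (their number in brackets), for all neutrophils (filled) and for granule-poor, receptor-bearing neutrophils under 10000 UMIs (open), with vertical lines at the median of all tested genes (0.23 and 0.12). The cytokine list goes from 1.75 to 0.57 and the interferon list from 1.34 to 0.05. The NADPH oxidase list, with 3 genes tested in both sets and medians of -0.17 and 0.51, is not plotted.

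Il1b was still higher with ATRA+agonist in these cells, at 5800 CPM against 3770 CPM (0.62, 0.43 to 0.80), and was found in 21 of 21 and 41 of 46 cells. Ccl6 (0.52), Cd44 (0.57) and Ptgs2 (0.86, 0.38 to 1.33) were also nearer to 0 than before. Lcn2 (0.03, -0.33 to 0.37) and Mmp9 (0.10, -0.32 to 0.49) did not differ by more than their counting error. The gate genes are not compared in these cells, which were chosen on them.

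The 7 genes at least 2-fold higher with ATRA+agonist in these cells were Igf1r, the receptor of insulin-like growth factor 1 (1.57, 1.12 to 2.04), Ifi27l2a (1.42, 1.08 to 1.77), Fem1c (1.12), Trem3, an activating receptor of myeloid cells (1.07), Nlrp3 (1.04, 0.58 to 1.49), Prkcb, protein kinase C beta (1.01), and Tnfaip2, a gene induced by tumor necrosis factor (1.01, 0.62 to 1.40). The 10 on the other side were 4 ribosomal protein genes, Hbb-bs (-1.57), Fabp4 (-3.26, with most of its UMIs in 1 DMSO vehicle cell), Arhgap24 (-1.55), Fbxl5, a regulator of iron metabolism (-1.44), Runx1, a transcription factor of blood formation (-1.18), and Wfdc21 (-1.02). Over all neutrophils Arhgap24 was at 0.00 (-0.65 to 0.56) and Runx1 at 0.39 (-0.10 to 0.82), so that neither was lower there. Below the minimum of 100 UMIs, Maml3 was at 2.07 (1.28 to 2.92) and Cass4 at 1.32, and Dusp16 was at 0.51 with an interval that included 0 (-0.22 to 1.19). Ly6g was at -1.84 (-5.27 to -0.09) from 2 and 20 UMIs, a ratio whose interval spans more than 5 log2 units.

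**Figure D5:**
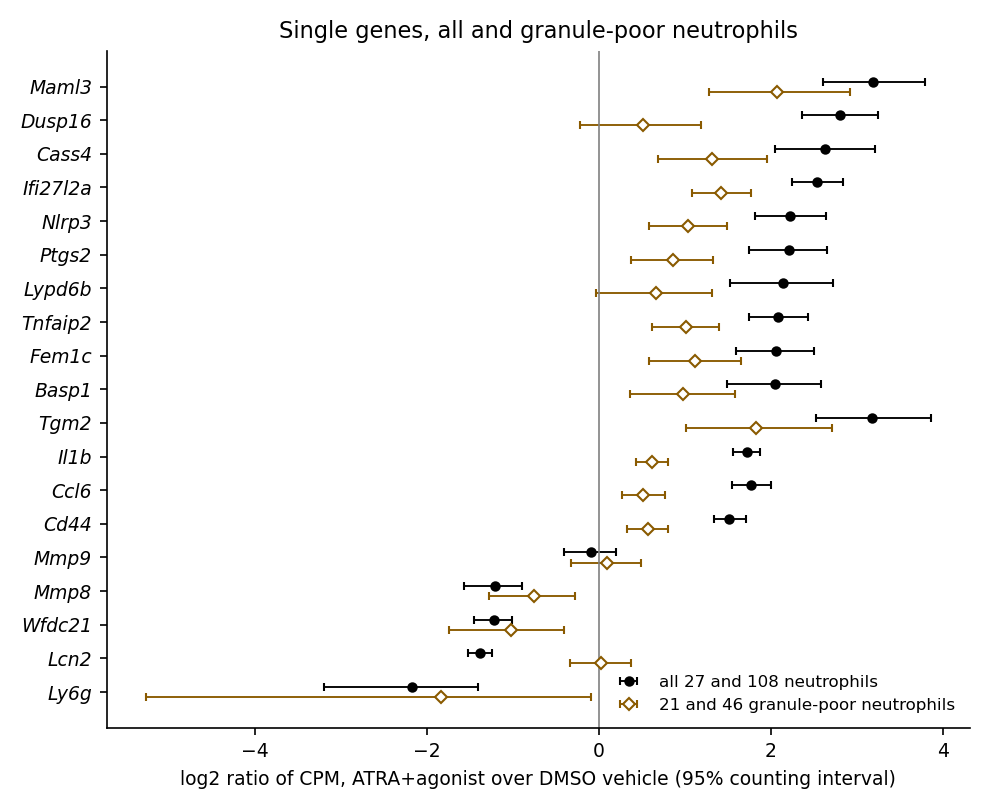
Log2 ratios of CPM (x axis, ATRA+agonist over DMSO vehicle) with 95% counting intervals are plotted for single genes over all 27 and 108 neutrophils (filled) and over the 21 and 46 granule-poor, receptor-bearing neutrophils under 10000 UMIs (open). Il1b moves from 1.72 to 0.62, Lcn2 from -1.38 to 0.03 and Dusp16 from 2.81 to 0.51, while Maml3 (2.07) and Tgm2 (1.83) remain highest.

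Genes of the retinoic acid pathway were mostly below detection in neutrophils. Of 19 in the matrix, 7 had at least 10 UMIs over both sums and 1 had 100, namely Cebpe, which encodes C/EBP-epsilon (-0.85, -1.60 to -0.23, in 5 and 39 cells). The receptor Rara had 16 and 49 UMIs (1.02, 0.07 to 1.83). In neutrophils with fewer than 10 UMIs of Camp, Ngp and Ltf it had 15 and 41 UMIs and did not differ by more than its counting error (-0.06, -1.05 to 0.80). Rarb, Rarg and Rxra had under 10 UMIs, and Rxrg, the enzymes Cyp26a1, Cyp26b1 and Aldh1a2, the binding proteins Crabp1 and Crabp2 and the importer Stra6 had 0 in both libraries. At this depth their differences were not detectable.

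Tgm2, a transglutaminase that retinoic acid induces in myeloid cells, was the member of that list with the largest ratio. It had 51 UMIs in 15 of 27 ATRA+agonist cells and 34 UMIs in 16 of 108 DMSO vehicle cells, at 382 and 42.0 CPM (3.18, 2.53 to 3.86). In the granule-poor, receptor-bearing cells under 10000 UMIs it had 33 and 21 UMIs, in 11 and 10 cells (1.83, 1.01 to 2.71). In the other cells of the same libraries the ratio was not above 0 in this way. It was -0.60 in monocytes (-1.02 to -0.19), 0.18 in macrophages (-0.17 to 0.53) and -0.85 in endothelial cells (-0.93 to -0.76).

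Other neutrophil genes were compared in the same way. Il1b was at 0.22 in monocytes (0.12 to 0.32) and 0.20 in macrophages (0.10 to 0.29), and Nlrp3 at 0.02 (-0.23 to 0.27) and -0.06 (-0.20 to 0.09). Maml3 was at -0.26 (-0.49 to -0.03) and 0.12 (-0.06 to 0.29). Ifi27l2a was higher with ATRA+agonist in both, at 0.47 (0.39 to 0.55) and 0.87 (0.80 to 0.94), and Cass4 at 1.67 (1.24 to 2.14) and 0.44 (0.13 to 0.77). Hbb-bs was lower in neutrophils by a log2 ratio of -1.38, and in all other kept barcodes it was at 184 and 559 CPM. Cells were counted once per class, and differences between classes were not tested, since each library is a single sample.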

How the data were processed

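Droplet-based 3-prime single-cell libraries (10x Genomics) were made from digested muscle, 1 per group. The authors deposited raw UMI counts per gene and barcode, made with Cell Ranger 7.2.0 per the file headers and aligned to mm10 (GRCm38). The submitters' processing notes also name FastQC and kallisto 0.46.2 and the labels describe a bulk library kit, which the matrices do not bear out. The annotation release was not given in the sources used here, and gene positions are those of GENCODE M21. Both matrices list 32285 genes. UMIs count molecules, so PCR copies do not enter.

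Filters and gate are given at the start. The members, the gene lists and the tests were chosen with earlier results of these data known. UMIs were summed over the neutrophils of a library and expressed as CPM, with exact Poisson intervals, and shares had Clopper-Pearson intervals. Log2 ratios had 0.5 UMIs added to each sum and an exact interval conditional on the total. Genes needed 100 UMIs over both sums and counted as apart at 2-fold. A count of 0 was taken to allow 3 counts.

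Named genes were the gate genes, the listed genes with at least 10 UMIs, the 10 largest rises and the 10 largest falls with an interval off 0 (at least 100 UMIs, not gate, mitochondrial, ribosomal protein, hemoglobin or unnamed genes, and at least as high as in other barcodes of a library), and the 20 genes with the largest fold over other cells. Genes past 2-fold in the stage-matched cells were named after their values were seen. Monocytes needed 3 UMIs of Ly6c2 and Ccr2 and 5 of Lyz2, macrophages 5 of C1qa, C1qb and C1qc, and both under 20 UMIs of S100a8 and S100a9. No doublet caller was applied in the main values, and a score was tried as an alternative. Scripts used Python 3.11.15, NumPy 2.4.6, SciPy 1.17.1, pandas 2.3.3 and scikit-learn 1.9.0, and were tested on simulated data.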

Additional observations from a re-analysis of the deposited data

Results flagged for a closer look

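The 6 genes below were drawn from the named genes. Over all neutrophils they were at least 2-fold apart with a counting interval off 0. They were also at least 2-fold apart in the stage-matched cells, in the same direction and with an interval off 0. That set was chosen after the data had been seen. In monocytes or macrophages of the same libraries their ratio lay at least 0.5 log2 units on the other side, with an interval off 0. Each is a difference between cell classes of single libraries, and none of these differences was tested. Tnfaip2 was at 2.09 in neutrophils and -1.04 in monocytes (127 and 211 UMIs there). Tgm2 was at 3.18 in neutrophils and -0.60 in monocytes. Irak3, a brake on Toll-like receptor signaling, was at 1.61 in neutrophils and -0.67 in monocytes. Dnajb1, a heat shock co-chaperone, was at 1.73 in neutrophils and -0.51 in macrophages. Dach1 was at -2.51 in neutrophils and 2.36 in macrophages, from 54 and 7 UMIs in the latter. Fabp4, a fatty acid-binding protein of endothelium and fat, was at -1.14 in neutrophils and 0.90 in monocytes.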

How the results depend on the processing

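Each group was 1 library, so none of these settings adds a replicate. No paired analysis was possible because each group had a single library. Sets of neutrophils restricted by granule, receptor or total UMIs or without the deepest cell, and a doublet score from 10 neighbors, were chosen after seeing the data. The causes of the changes below were not tested, beyond the smaller number of cells or genes that a setting leaves.

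The ratio of neutrophil shares (0.252) was 0.147 among Ptprc-positive barcodes, 0.416 over all deposited barcodes, 0.429 for neutrophils with fewer than 10 UMIs of Camp, Ngp and Ltf (granule-poor) and 0.126 after a doublet score from 1% of barcodes as neighbors, and below 1 in every setting run.

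That doublet score (93 and 94 neighbors) took 25 of 27 and 92 of 108 neutrophils, and left 17 genes at least 2-fold higher with ATRA+agonist and 153 with DMSO vehicle. Medians became 3.73 (secondary granule), -2.38 (receptor and adhesion), -5.14 (cytokine and chemokine) and -1.79 (type I interferon), and single genes reversed to 5.91 (Camp), -5.14 (Ccl6), -2.38 (Cd44), -4.00 (Cxcl2), -5.57 (Il1b), 3.73 (Lcn2), 7.65 (Ltf), -5.91 (Slc7a11), -1.76 (Slpi) and 2.44 (Wfdc21). From 10 neighbors the score took 1 and 5 cells and reversed none.

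Genes higher with ATRA+agonist (185) and with DMSO vehicle (98) became 24 and 94 in granule-poor cells, 100 and 50 with at least 4 receptor UMIs, 58 and 51 with at least 6, 8 and 17 in granule-poor cells with at least 6, and 7 and 10 in those of them under 10000 UMIs. They were 83 and 50 under 10000 UMIs, 262 and 167 without the deepest neutrophils, 364 and 210 at a minimum of 50 UMIs, 88 and 55 at 200, 104 and 158 without abundant gene classes in the totals, 99 and 174 by median of ratios, 90 and 119 as a mean of per-cell CPM, and 7 and 7 of 65 genes after thinning.

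The secondary granule median (-0.94) became -0.22 in granule-poor cells, -0.46 with at least 6 receptor UMIs, -0.43 with both, -0.18 with both and under 10000 UMIs, -3.42 under 10000 UMIs, -3.55 without the deepest cells, -1.17 by median of ratios, -1.79 as a mean of per-cell CPM and -1.97 after thinning. The cytokine and chemokine median (1.03) became 0.37, 0.42 and 0.57 in the 3 granule-poor sets, 1.54 with at least 50 S100a8 and S100a9 UMIs and 0.16 as a mean of per-cell CPM. The receptor and adhesion median (0.85) became 0.31 with at least 6 receptor UMIs, and 0.21 and 0.27 in the granule-poor sets with this minimum. The type I interferon median (1.14) became -0.30, 0.03 and 0.05 in the granule-poor sets, 0.44 with at least 6 receptor UMIs and 0.46 as a mean of per-cell CPM.

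In granule-poor cells Cxcl2 (-0.03), Ifitm1 (-0.39) and Lcn2 (0.09) reversed. With at least 6 receptor UMIs as well, Cstdc4 (-0.42), Cxcl2 (-0.09), Ifitm1 (-0.75), Ptafr (-0.000333) and Slc7a11 (-0.17) did, and under 10000 UMIs Ifitm1 (-0.40), Lcn2 (0.03) and Slc7a11 (-0.08). Without the hemoglobin filter Hba-a1 (0.30), Hba-a2 (0.26) and Hbb-bs (0.83) reversed, without the limit on excluded genes Fabp4 (0.61), and Olfm4 without the deepest cells (-3.49) and as a mean of per-cell CPM (-0.79).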

Other observations

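Stress and hormone-response genes were also read in the neutrophils. Of 3 glucocorticoid-induced genes tested, Dusp1, a phosphatase of MAP kinases, was at 1.87 (1.56 to 2.18), detected in 25 of 27 and 67 of 108 cells, while Tsc22d3 (0.10) and Cebpd (-0.06) had intervals that included 0. Of 6 metallothionein and oxidative stress genes tested, Slc7a11, the cystine importer (1.06), and Sqstm1, an autophagy receptor (1.14), were past 2-fold, and Prdx5, a peroxidase, was at -0.76. Mt1, a metallothionein, had 2 and 96 UMIs (-2.67, -6.05 to -1.09), in 2 and 11 cells. Glycolysis and hypoxia genes had a median of -0.22 with 0 of 9 past 2-fold. Of 2 heat shock genes tested 0 were past 2-fold (median -0.24).

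Few interferon gamma-induced genes had enough UMIs. Psmb8, an immunoproteasome subunit, was at 1.07 and Psmb9 at -0.25. Cd274, which encodes PD-L1, had 33 UMIs in each library (2.60, 1.86 to 3.34 on the log2 scale). MHC class II genes had 16 and 164 UMIs, and 21 and 86 cells had 0 of them. In the DMSO vehicle library 1 cell held 94 of these UMIs and another held 19. Both are among the 7 cells that fitted the label poorly. Pattern recognition receptors Tlr2 (0.97) and Cd14 (0.90) lay above the median of all genes, 0.23. Proliferation genes summed to 2290 and 2310 CPM, but the deepest ATRA+agonist neutrophil held 87.3% of their UMIs there, and without the deepest neutrophil of each library the levels were 355 and 2110 CPM. In all, 2 of 27 and 40 of 108 cells had at least 5 of their UMIs.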
